A study of Homo sapiens with 6 samples.

Results

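The genes described here are the receptors of the ERBB family (EGFR, ERBB2, ERBB3 and ERBB4), 5 of their ligands (AREG, EREG, HBEGF, TGFA and NRG1) and RNF41, an E3 ubiquitin ligase also called NRDP1. They were chosen by symbol, with no measured value in the rule but with earlier results of these data known. The table of 26819 genes has a row for 9 of the 10. EREG has none and was not analysed here. Levels are in TPM, which are read counts per unit of gene length scaled to a fixed library total. Of the 9, 6 reached 1 TPM in at least 3 of the 6 libraries and were tested, among 14833 such genes in all. ERBB4, AREG and NRG1 did not reach it.

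The cells were C4-2, a castration-resistant human prostate cancer line of the LNCaP lineage, established with Tet-O-YAP5SA, a doxycycline-responsive construct. YAP5SA is a form of the transcriptional coactivator YAP1 that the LATS kinases cannot switch off. Ctrl is 3 libraries of these cells without doxycycline, and Dox is 3 libraries after 24 hours with it. All 6 share the genotype and were cultured in serum-containing RPMI-1640. The dose is labelled 0.2 mg/ml, a unit in doubt because it is high for such a system. No library analysed here comes from doxycycline-treated cells without the construct, so the drug and the transgene cannot be told apart. The labels do not say whether the replicates were separate cultures or how the line was cloned, so the spread behind each p-value may be only technical. Serum itself carries growth factors, and they do not show in a measurement of the cells' RNA.

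YAP1, the gene of the construct, was at 52.7, 57.9 and 59.9 TPM in the Ctrl libraries and 263, 277 and 268 TPM in the Dox libraries, so every library labelled Dox had more. Depth, as reads recovered from the values, ran from 24960453 to 29261555 reads per library. Luminal prostate markers were present in every library. KLK3, which encodes prostate-specific antigen, was at 3297 ± 69.6 TPM in Ctrl and 1795 ± 17.1 TPM in Dox, and the luminal keratin KRT8 at 473 ± 7.22 and 582 ± 21.5 TPM (SD, n = 3). FOLH1, TMPRSS2, HOXB13, KLK2 and KRT18 were at 51.3 TPM or more on average in both groups. The fall of KLK3 moved with the group, and its part in the results was not tested. Of 12 markers of leukocytes, endothelium, stroma, basal epithelium or stem-like cells, 8 had a row. Their summed level was 1.52 to 2.04 TPM in Ctrl and 1.72 to 2.46 TPM in Dox, with 2 to 5 of the 8 at 0 in each library. Most of it was KRT14, at 1.48 ± 0.175 and 1.44 ± 0.290 TPM (SD, n = 3). The endothelial cadherin CDH5 moved with the group, from 0.00658 ± 0.0114 to 0.469 ± 0.0936 TPM, and its part in the results below was not tested. CD3E was at 0 in all Ctrl libraries and KRT5 and SOX2 in all Dox libraries. In bulk RNA a change in the share of cells and a change in RNA per cell cannot be told apart.

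The ERBB receptors are receptor tyrosine kinases that signal as pairs. EGFR binds EGF-like ligands such as TGF-alpha, amphiregulin, epiregulin and HB-EGF, and ERBB3 and ERBB4 bind neuregulins. ERBB2 binds no ligand of its own and serves as the preferred partner of the others, while ERBB3 has little kinase activity and recruits PI3K through its tail. HB-EGF, TGF-alpha and amphiregulin are made as membrane-bound precursors and released by ADAM proteases. RNF41 ubiquitinates ERBB3 and lowers its amount at the protein level, and USP8 is the deubiquitinase that stabilizes RNF41. AREG is a known YAP target in other epithelial cells.

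To show the DNA in front of the genes that moved most and of EGFR, bases upstream of RefSeq start sites are printed here (GRCh38.p14, each on its gene's strand and 5′ to 3′). Capitals mark a match to GGAATG, the core of the TEAD motif through which YAP binds DNA, or to TGANTCA, the AP-1 motif, on either strand. Stretches end where annotated untranslated exon would run past 30 bases. The HBEGF stretch is chr5:140346604-140346853 (minus strand), that of RNF41 chr12:56221934-56222044 (minus strand), that of the main EGFR start chr7:55018767-55019016 (plus strand) and that of a downstream alternative EGFR start chr7:55109589-55109752 (plus strand).
HBEGF: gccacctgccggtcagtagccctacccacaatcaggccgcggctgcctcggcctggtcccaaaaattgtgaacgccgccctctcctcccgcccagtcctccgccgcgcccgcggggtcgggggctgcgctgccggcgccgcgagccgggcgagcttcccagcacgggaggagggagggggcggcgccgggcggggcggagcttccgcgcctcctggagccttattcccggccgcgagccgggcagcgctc
RNF41: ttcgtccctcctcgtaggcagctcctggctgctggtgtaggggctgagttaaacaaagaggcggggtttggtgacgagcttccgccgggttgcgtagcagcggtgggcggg
EGFR, main start: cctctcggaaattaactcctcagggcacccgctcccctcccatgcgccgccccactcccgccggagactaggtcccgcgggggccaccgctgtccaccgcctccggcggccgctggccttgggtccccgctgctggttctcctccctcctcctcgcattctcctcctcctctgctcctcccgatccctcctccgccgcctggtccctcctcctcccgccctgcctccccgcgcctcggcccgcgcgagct
EGFR, alternative start: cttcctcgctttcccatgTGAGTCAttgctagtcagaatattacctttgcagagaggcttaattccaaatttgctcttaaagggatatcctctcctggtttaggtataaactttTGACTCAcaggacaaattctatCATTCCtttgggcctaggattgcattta
RefSeq gave 11 windows of 250 bases before a start site for 8 of the 10 genes, and whole windows were searched. GGAATG was found in 2 of the 11 (the alternative EGFR start and EREG), against 11.9% of 35116 windows of the same length over all genes. TGANTCA was found in 2 of the 11 (the alternative EGFR start and ERBB2), against 6.57% of all windows. The alternative EGFR window holds both, with AP-1 matches starting at -232 and -136 and the TEAD core at -114 from the start site, which 1.06% of all windows do. The windows of HBEGF and RNF41 and of the main EGFR start hold neither string of letters. A match is a description of the sequence and not a site shown to be bound, and the table gives 1 value per gene, so it does not separate the EGFR start sites.

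Expression of RNF41, ERBB2, EGFR, HBEGF and TGFA was higher after doxycycline, while ERBB3 did not pass the test. Thus 5 of the 6 tested members were called, all upwards. Among all tested genes 53.7% were called (35.9% upwards and 17.8% downwards, limma with Benjamini-Hochberg adjusted p under 0.05), so a call is common in these data and the sizes say more than the count. Log2 fold changes below are limma estimates on log2(TPM + 1), which understates the change of genes near 1 TPM, and folds without "log2" are ratios of mean TPM. Over all tested genes the median log2 fold change was 0.10. Another scaling of the libraries moved that median by -0.10 (median-ratio) or -0.13 (quantile), and the values of the members are to be read against it.

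**Figure D1:**
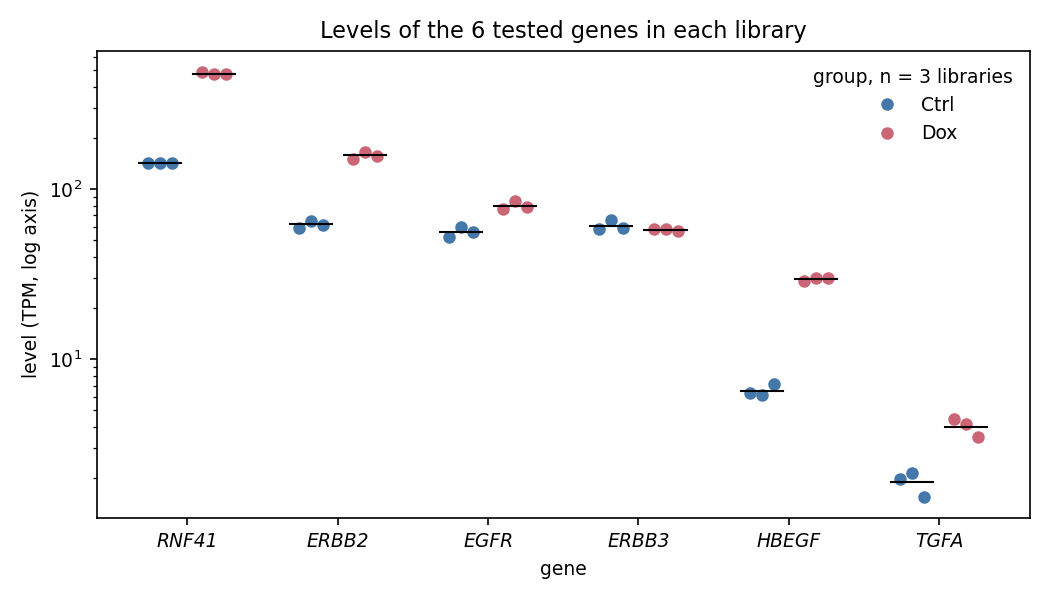
Level of each of the 6 tested genes in TPM on a log axis, with 1 point per library (3 Ctrl, 3 Dox) and a line at each group's mean. The groups are apart for RNF41, ERBB2, EGFR, HBEGF and TGFA, and overlap for ERBB3.

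In TPM, ERBB2, EGFR and ERBB3 were at nearly the same level without doxycycline and at clearly different levels with it. ERBB4 was close to 0 throughout. ERBB2 (ENSG00000141736.9), the co-receptor without a ligand, was at 59.4, 65.3 and 61.6 TPM in the Ctrl libraries and at 151, 164 and 157 TPM in the Dox libraries. No Dox library came near the Ctrl range. Its mean rose from 62.1 ± 2.97 to 158 ± 6.36 TPM (SD, n = 3), 2.54-fold, with a log2 fold change of 1.33 ± 0.05 (SE, limma adjusted p = 4.9e-07). That change is larger than those of 97.7% of the tested genes.

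EGFR (ENSG00000146648.11) was at 52.4, 59.9 and 55.7 TPM in Ctrl and 76.2, 85.0 and 78.9 TPM in Dox. The groups did not overlap, as in 61.9% of all tested genes (40.8% with the Dox libraries above). The mean rose 1.43-fold, from 56.0 ± 3.79 to 80.0 ± 4.48 TPM, with a log2 fold change of 0.51 ± 0.06 (limma adjusted p = 0.00028). Either rescaling of the libraries gave 0.40.

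ERBB3 (ENSG00000065361.10), the substrate of RNF41 and the receptor that couples most directly to PI3K, was at 58.0, 65.9 and 58.8 TPM in Ctrl and 57.9, 58.3 and 56.3 TPM in Dox. The ranges overlap, and Ctrl 2 is the library that stands highest. Its log2 fold change was -0.08 ± 0.05 (limma adjusted p = 0.24). The call depends on the scaling, since ERBB3 passes as lower with limma on median-ratio scaled values (-0.19, adjusted p = 0.0051), on quantile-normalized ones (-0.21, 0.0062) and with limma voom on recovered reads (-0.12, 0.020). The direction was downward in all of these, and the size stayed small.

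ERBB4 (ENSG00000178568.9), the other neuregulin receptor, was close to undetected. Its levels were 0.0257, 0.0639 and 0.0543 TPM in Ctrl and 0.0205, 0.0186 and 0.0262 TPM in Dox, which correspond to 16 reads over the Ctrl libraries and 7 over the Dox libraries. With 3 reads taken as the floor per library, the Dox libraries all lay at or under it and no fold is given.

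In Ctrl the order of the receptors by TPM, a scale per length, was ERBB2, ERBB3 and EGFR, with ranges that overlap for each pair, and ERBB4 far below them. In Dox the order was ERBB2, EGFR, ERBB3 and ERBB4, and no range touches another. As a share of the summed TPM of the 4 receptors, ERBB2 went from 34.7% ± 0.474 to 53.4% ± 0.357 (SD, n = 3). ERBB3 went from 34.0% ± 0.545 to 19.5% ± 0.692 and EGFR from 31.3% ± 0.391 to 27.1% ± 0.486. A share within a library is free of the scaling between libraries. Each of the 3 shifts gave p = 0.10 in a two-sided exact permutation test, the smallest value 3 against 3 libraries allow (adjusted p = 0.13 over 8 shares of receptors and ligands, exact test). The sum itself rose 1.65-fold, from 169.8, 191 and 176 TPM to 286, 307 and 292 TPM.

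**Figure D2:**
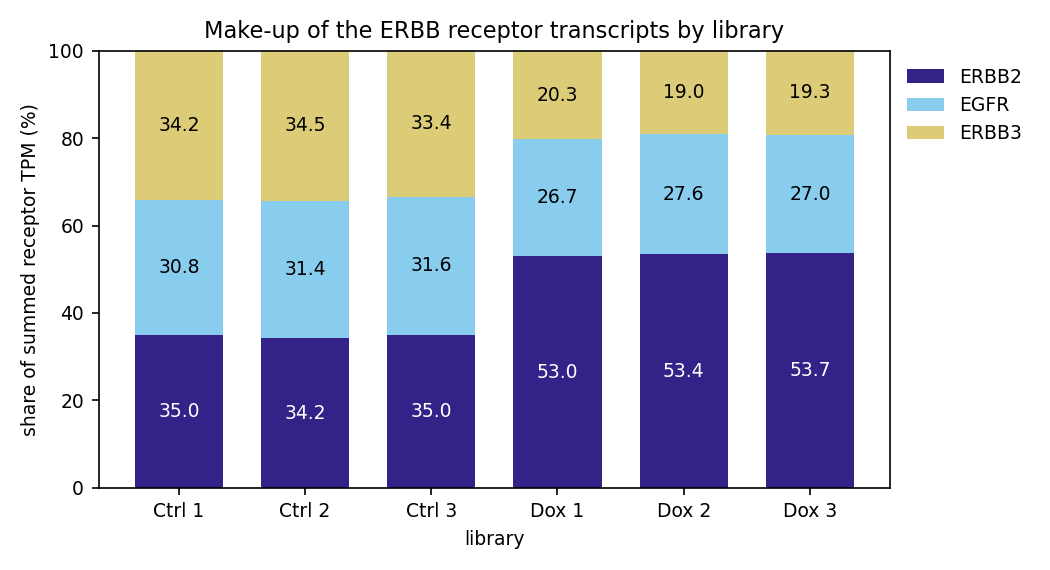
Share of ERBB2, EGFR and ERBB3 in the summed TPM of the 4 ERBB receptors, in percent, 1 bar per library. ERBB4 is too low to be seen (0.0334% at most), and ERBB2 takes 34.7% of the Ctrl bars and 53.4% of the Dox bars on average.

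Within each library the transcript ratio of ERBB2 to ERBB3 was 1.02, 0.991 and 1.05 in Ctrl and 2.62, 2.82 and 2.79 in Dox. In TPM, ERBB2 thus changed from about the level of ERBB3 to a clear excess. A comparison of levels between genes depends on the gene lengths used, while the change of the ratio does not. The ratio of ERBB2 to EGFR went from 1.11 ± 0.0229 to 1.97 ± 0.0330, a difference of 0.83 on the log2 scale. ERBB2 therefore rose by more than EGFR in every Dox library (exact permutation p = 0.10, two-sided and the smallest possible; adjusted p = 0.10 over 8 such ratios).

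RNF41 (ENSG00000181852.13) had the highest TPM of the members in both groups. It was at 142, 143 and 143 TPM in Ctrl and 487, 471 and 472 TPM in Dox. The spread within each group is small beside the distance between them. The mean rose 3.34-fold, from 143 ± 0.406 to 477 ± 8.87 TPM, with a log2 fold change of 1.73 ± 0.03 (limma adjusted p = 1.4e-08). This is the 191st largest of 14833 changes, counted from the largest rise. Over the groups the value rests on 15581 reads in Ctrl and 49270 in Dox.

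The ratio of RNF41 to ERBB3 transcripts was 2.46, 2.17 and 2.43 in the Ctrl libraries and 8.41, 8.08 and 8.39 in the Dox libraries. The ligase transcript therefore increased while that of its receptor substrate stayed within 1.06-fold of its Ctrl mean on the deposited scale. The difference was 1.82 on the log2 scale (exact permutation p = 0.10, two-sided). USP8, which protects RNF41 from its own ubiquitination, was at 15.7 ± 1.03 and 17.5 ± 1.26 TPM and did not pass the test (limma adjusted p = 0.11). The ratio of RNF41 to USP8 went from 9.12 ± 0.563 to 27.3 ± 2.02. Receptor protein was not measured here.

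Of 7 tested RNF41 partners and substrates, 4 rose and 1 fell, with a median log2 fold change of 0.46 beside 0.10 for all tested genes. Among all tested genes 35.9% were called higher and 17.8% lower, so with 7 genes the counts are not read as a trait of the list. CLEC16A, a lysosome-linked protein that stabilizes RNF41, rose from 4.08 ± 0.398 to 6.73 ± 0.291 TPM (log2 fold change 0.61 ± 0.08). BIRC6, a giant inhibitor of apoptosis and a substrate, rose 1.53-fold to 15.0 ± 0.339 TPM. The innate immune adaptor MYD88 rose 1.49-fold and the trafficking subunit VPS52 1.39-fold. The kinase TBK1 was the member that fell (-0.17 ± 0.06, limma adjusted p = 0.036). It loses its call without Ctrl replicate 1, 2 or 3 (adjusted p = 0.072, 0.068 and 0.11), without Dox replicate 2 or 3 (0.055 and 0.079), with no low-value filter (0.069), without the variance trend (0.060) and with the replicate block (0.057). After quantile normalization 2 genes of the list were lower, with the kinase MARK2 added (-0.17, limma adjusted p = 0.038).

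HBEGF (ENSG00000113070.6), which encodes heparin-binding EGF-like growth factor, had the largest change of the members. It was at 6.36, 6.13 and 7.13 TPM in Ctrl and 28.7, 30.2 and 30.1 TPM in Dox. The libraries of each group lie close together and far from the other group. The mean rose 4.53-fold, from 6.54 ± 0.524 to 29.7 ± 0.815 TPM, with a log2 fold change of 2.03 ± 0.06 (limma adjusted p = 2.9e-07), above 99.1% of the tested genes.

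TGFA (ENSG00000163235.11), which encodes transforming growth factor alpha, stayed low but also rose. It was at 1.98, 2.15 and 1.56 TPM in Ctrl and 4.44, 4.14 and 3.48 TPM in Dox, from 244 and 487 reads over the groups. The groups did not overlap, though the lowest Dox library is nearer to Ctrl than the others. The mean rose 2.12-fold, from 1.90 ± 0.302 to 4.02 ± 0.490 TPM, with a log2 fold change of 0.79 ± 0.12 (limma adjusted p = 0.00098). With a pseudocount of 0.1 in place of 1 the log2 fold change was 1.05.

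AREG, the amphiregulin gene, had no reads in Ctrl 1, Ctrl 3, Dox 1 and Dox 2, 1 read in Ctrl 2 (0.0720 TPM) and 2 reads in Dox 3 (0.138 TPM). All of these are under the floor of 3 reads, which is 0.203 to 0.243 TPM for this gene, so no difference was detectable at this depth. The hg19 build used by the submitters carries another, nearly identical copy of this gene (AREGB). Reads that match both copies may have been left out of the count, so the level of AREG here is uncertain. NRG1, the neuregulin-1 gene, was listed at 0 in 5 libraries and at 0.0174 TPM in Dox 1.

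Over the 4 chosen ligands with a row (HBEGF, TGFA, AREG and NRG1), HBEGF made up most of the summed TPM in both groups. Its share of the summed TPM of these 4 was 76.3%, 73.4% and 82.0% in Ctrl and 86.6% to 89.3% in Dox. The rest of that sum was nearly all TGFA, whose share went from 22.5% ± 4.03 to 11.9% ± 1.53 although its level rose. The sum of the 4 rose 3.99-fold, from 8.46 ± 0.203 to 33.7 ± 0.581 TPM. AREG enters these shares and this sum with its uncertain count, and reads left out of that count would change them. The ratio of HBEGF to EGFR transcripts went from 0.117 ± 0.0134 to 0.371 ± 0.0137 (exact permutation p = 0.10, two-sided). The other EGF family ligands with a row were under the filter and are not in these sums. BTC (betacellulin) was at 0.658 ± 0.137 and 0.877 ± 0.180 TPM and EGF at 0.782 ± 0.0450 and 0.632 ± 0.114 TPM. NRG3 and NRG4 were at 0.168 TPM or less on average.

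**Figure D3:**
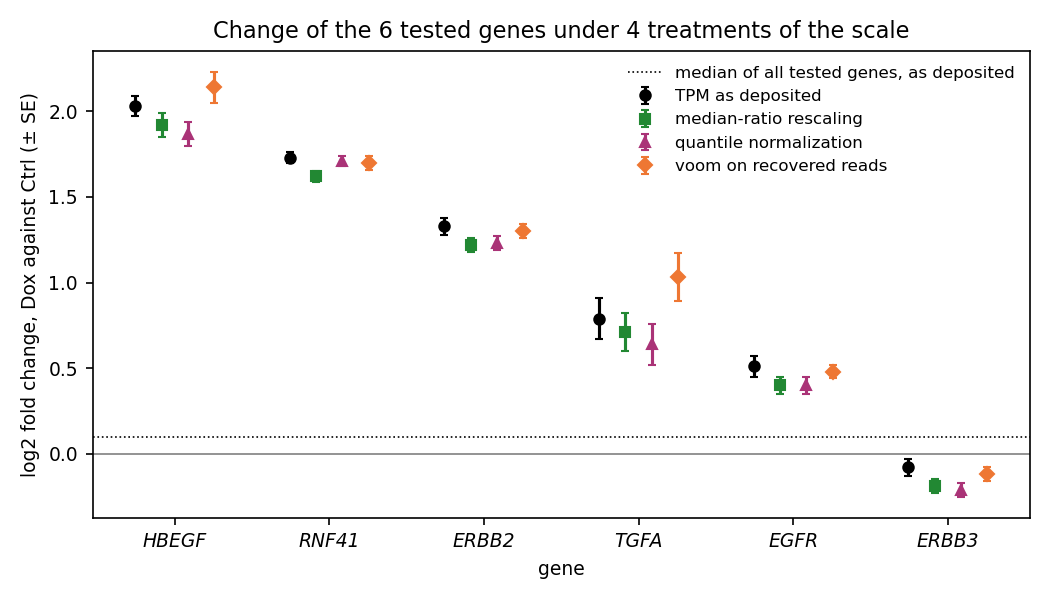
Log2 fold change of Dox against Ctrl with its SE for the 6 tested genes, from TPM as deposited, after median-ratio rescaling, after quantile normalization, and from voom on recovered reads (3 libraries per group). HBEGF, RNF41, ERBB2, TGFA and EGFR stay above 0 and above the dotted median of all genes (0.10) in each, and ERBB3 lies between -0.21 and -0.08.

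Profiles like those of the members were sought by the distance between log2(TPM + 1) values centred on each gene's mean, over the 6 libraries. Nearest to HBEGF were MATN3, a cartilage matrix protein, CITED4, a CBP/p300-binding coactivator, and RAB20, a small GTPase of endosomes and phagosomes, at distances of 0.10, 0.11 and 0.12. RAB20 rose from 79.6 ± 3.72 to 339.6 ± 9.42 TPM (SD, n = 3) and CITED4 from 10.2 ± 0.553 to 44.5 ± 3.41 TPM. Nearest to ERBB3, the member with the lowest fold change, were the chloride channel gene CLCN2, the endothelin-converting enzyme gene ECE1 and the tRNA methyltransferase gene TRMT13 (distances of 0.04, 0.05 and 0.05). With 6 libraries in 2 groups such likeness mostly restates a similar change.

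The wider pathway was read from lists of genes around the receptors. Over all of them, 124 genes other than the members had a row and 104 were tested. Of these 58 rose (55.8%) and 15 fell (14.4%), beside 35.9% and 17.8% of all tested genes, with a median log2 fold change of 0.22. After median-ratio rescaling 47 were higher and 18 lower, and after quantile normalization 46 and 23. The lists were chosen with earlier results of these data known, so the counts describe these genes and are no independent evidence of a direction. The counts of each list below are to be read beside the same shares of all tested genes, 35.9% higher and 17.8% lower.

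Of 11 tested genes for ligand shedding and maturation, 5 rose and 3 fell (median 0.14). ADAM9, a membrane metalloprotease, rose from 133 ± 2.65 to 387 ± 3.99 TPM (log2 fold change 1.53 ± 0.03, limma adjusted p = 3.1e-08). ADAM10, the sheddase of EGF and betacellulin precursors, rose 1.90-fold to 119.5 ± 2.31 TPM. ADAM17, the main sheddase of TGF-alpha, amphiregulin and HB-EGF, was at 8.62 ± 0.821 and 9.58 ± 0.722 TPM and did not pass the test (adjusted p = 0.21). RHBDF1 (iRhom1), which carries ADAM17 to the cell surface, rose 2.34-fold, from 7.51 ± 0.290 to 17.6 ± 1.05 TPM. Its paralog RHBDF2 was at 1.63 ± 0.358 and 1.88 ± 0.245 TPM (adjusted p = 0.42). The rhomboid protease gene RHBDL2 rose 1.61-fold. Those that fell were FRMD8, which stabilizes the iRhom and ADAM17 complex (-0.37 ± 0.07), and the cargo receptors CNIH4 (-0.25 ± 0.04) and CNIH1 (-0.18 ± 0.05). The call of CNIH1 is lost without Ctrl replicate 3 (limma adjusted p = 0.059).

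Among 26 tested adaptors and proximal effectors of the receptors, 14 rose and 4 fell (median 0.18). STAT3, a transcription factor activated by tyrosine kinases, rose from 51.9 ± 1.73 to 102 ± 0.309 TPM (log2 fold change 0.97 ± 0.04, limma adjusted p = 6.7e-07). ERBB2IP (ERBIN), a scaffold that binds the tail of ERBB2, rose 1.64-fold to 40.8 ± 3.39 TPM. PIK3CB, a catalytic subunit of PI3K, rose from 90.0 ± 6.48 to 135 ± 6.68 TPM, and STAT5A 1.48-fold. The regulatory subunits PIK3R3 and PIK3R1 fell, by 0.61 and 0.42 on the log2 scale, from 35.2 ± 2.36 to 22.7 ± 0.836 TPM and from 7.35 ± 0.446 to 5.22 ± 0.0464 TPM. GRB10, an adaptor that dampens receptor signalling, fell by 0.36 and CRKL by 0.12. CRKL loses its call with no low-value filter (adjusted p = 0.062), without the variance trend (0.087), without Ctrl replicate 1, 2 or 3 (0.060, 0.083 and 0.13) and without Dox replicate 1 or 2 (0.11 and 0.096). GRB2, the adaptor that links the receptors to RAS, was at 119.7 ± 4.35 and 125 ± 0.999 TPM (adjusted p = 0.17). The number that rose is 9 without Ctrl replicate 1 or without Dox replicate 2, and also 9 after either rescaling.

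Of 21 tested inhibitors and degradation factors, 9 rose and 5 fell (median 0.09, close to that of all tested genes). ERRFI1 (MIG6), which binds the kinase domain of EGFR and blocks it, rose 1.70-fold, from 48.4, 53.0 and 53.0 TPM to 86.9, 89.0 and 86.1 TPM. PTPRJ, a receptor phosphatase that acts on EGFR, rose from 33.0 ± 2.57 to 86.8 ± 3.68 TPM (log2 fold change 1.37 ± 0.06). The ubiquitin ligase gene NEDD4 rose 2.41-fold to 4.57 ± 0.355 TPM and the CBL adaptor SH3KBP1 (CIN85) 1.96-fold. LRIG1, a transmembrane protein that promotes degradation of ERBB receptors, fell from 27.4 ± 1.53 to 12.7 ± 0.539 TPM (log2 fold change -1.05 ± 0.06, limma adjusted p = 5.1e-06). TOB1, an antiproliferative protein that binds ERBB2, fell from 193 ± 3.06 TPM to 87.5, 87.1 and 78.6 TPM. CD2AP fell by 0.39 and STUB1 (CHIP), which directs chaperone-bound ERBB2 to degradation, by 0.36 on the log2 scale. CBL, CBLB and CBLC, the ligases that ubiquitinate activated EGFR, did not pass the test (adjusted p = 0.70, 0.17 and 0.41).

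Receptor endocytosis and sorting genes numbered 24 tested, of which 13 rose and 2 fell (median 0.20). ANKRD13A, which binds ubiquitinated EGFR at the plasma membrane, rose from 29.5 ± 1.78 to 82.7 ± 2.68 TPM (log2 fold change 1.46 ± 0.05, limma adjusted p = 5.3e-07). The clathrin light chain CLTB rose 1.66-fold, the AP-2 adaptor subunit AP2A1 1.60-fold and the late endosome GTPase RAB7A 1.49-fold, the last from 400.2 ± 7.92 to 598 ± 2.16 TPM. EPS15L1 fell by 0.22 and the clathrin heavy chain CLTC by 0.10. CLTC loses its call without Ctrl replicate 2 or 3 (limma adjusted p = 0.11 and 0.094), without Dox replicate 1, 2 or 3 (0.082, 0.077 and 0.11), without the filter (0.071) and without the variance trend (0.11). After quantile normalization 12 genes of this list were higher and 4 lower, the added ones being EPN2 (-0.20, adjusted p = 0.017) and STAM2 (-0.17, 0.022).

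In the RAS to ERK cascade 9 of 12 tested genes rose and none of the 12 fell (median 0.30), although 1 passes as lower on median-ratio scaled values and 2 on quantile-normalized ones. ERK1 (MAPK3) rose from 48.3 ± 3.15 to 78.9 ± 2.17 TPM (log2 fold change 0.70 ± 0.05). RASA1, a GTPase-activating protein that turns RAS off, rose 1.39-fold, from 16.7 ± 1.28 to 23.2 ± 1.61 TPM. HRAS was at 86.7 ± 0.980 and 82.6 ± 3.87 TPM (limma adjusted p = 0.19), and it is the gene that passes as lower under both scalings (0.0091 and 0.0096), with BRAF under quantile normalization alone (0.028).

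Of 10 genes used as a readout of MAPK pathway output, 5 reached the filter and all 5 rose. EPHA2, a receptor tyrosine kinase, rose from 5.58, 7.45 and 5.20 TPM to 24.5, 27.4 and 25.0 TPM (log2 fold change 1.92 ± 0.12). CCND1 rose 1.52-fold, PHLDA1 1.38-fold from 9.46 ± 0.358 to 13.0 ± 1.43 TPM, and SPRY2, a feedback inhibitor, 1.47-fold from 2.01 ± 0.0951 to 2.96 ± 0.462 TPM. DUSP4, the fifth, rose 1.34-fold. The count is 3 without Ctrl replicate 3, without Dox replicate 2, with quantile normalization and with a filter at a mean of 5 TPM, which leaves out SPRY2 and DUSP4. SPRY2 loses its call without Ctrl replicate 2 or 3 (limma adjusted p = 0.055 in both), without Dox replicate 2 or 3 (0.068 and 0.070), with no filter (0.055) and under either rescaling (0.053 and 0.12). DUSP4 loses it without Ctrl replicate 3 (0.051), without Dox replicate 2 (0.055) and with quantile normalization (0.089). The others, DUSP6, SPRY4, ETV4, ETV5 and EPHA4, were under the filter. DUSP6, the ERK phosphatase, was at 0.745 ± 0.148 and 0.547 ± 0.105 TPM, with overlapping groups. SPRY4 was at 0.170 ± 0.0453 and 0.483 ± 0.0532 TPM and ETV5 at 0.438 ± 0.0464 and 0.643 ± 0.0941 TPM. Both were higher in Dox without overlap, as were 40.8% of all tested genes, but neither was tested. The groups overlapped for ETV4 and EPHA4. The list is therefore seen only through its better expressed members, and for EPHA2 and CCND1 the part of MAPK signalling in the change was not tested.

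**Figure D4:**
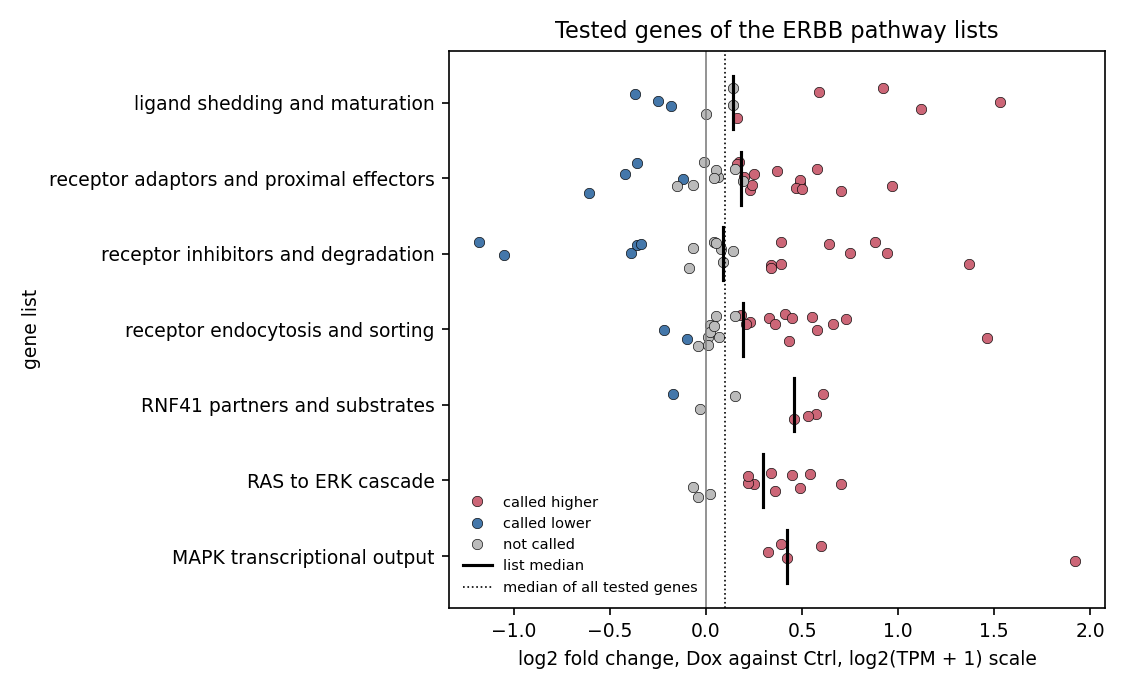
Log2 fold change (Dox against Ctrl) of each tested gene in the pathway lists, 1 point per gene, with a bar at each list's median and a dotted line at the median of all tested genes (0.10). Called genes lie on either side in the lists of adaptors, inhibitors, sorting and shedding, and the inhibitor list reaches from TOB1 at -1.18 to PTPRJ at 1.37.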

How the data were processed

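RNA of C4-2 cells with Tet-O-YAP5SA was sequenced in 3 Ctrl and 3 Dox libraries (TruSeq stranded mRNA), grouped by sample title. Per the submitters' processing notes, FastQC 0.11.2, STAR 2.5.3a, featureCounts and edgeR were used with hg19. Annotation release and strand setting were not given in the sources used here. ERBB2 overlaps PGAP3 and MIEN1, and EGFR overlaps EGFR-AS1, on the opposite strand. The authors deposited TPM per gene and library, with GENCODE identifiers.

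Whole reads were recovered from TPM with GENCODE 29 exon lengths (9115 tested genes) or the smallest length giving whole reads within 0.01 in all 6 libraries (5718). Reads of RNF41, EGFR and ERBB3 rest on the latter and may be too low by a common divisor. Floors are 3 reads and cover counting error only.

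Genes with at least 1 TPM in 3 or more libraries were tested with limma 3.58.1 (R 4.3.3, mean-variance trend, log2(TPM + 1), pseudocount 1), two-sided, Benjamini-Hochberg over 14833 genes, threshold 0.05. The fit was tested on simulated data. Shares and ratios were tested by exact permutation over libraries.

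The members and lists were chosen with earlier results of these data known. Named are all members, up to 4 called genes per list and direction by size (others stand beside a member's role; some items are not reported here), and the 3 nearest profiles of the members with the highest and lowest change. Alternatives were each library left out in turn, a replicate block, no variance trend, quantile or median-ratio scaling, a filter at a mean of 5 TPM or none, and a pseudocount of 0.1. Voom on recovered reads was added after the data were seen.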

Additional observations from a re-analysis of the deposited data

How the results depend on the processing

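RNF41, ERBB2, EGFR, HBEGF and TGFA kept their direction and their call in every setting that was run and in which they were tested. A mean of at least 5 TPM leaves TGFA out. ERBB3 is called lower after median-ratio rescaling (-0.19), after quantile normalization (-0.21) and with voom on recovered reads (-0.12, added after the data were seen), and the cause was not tested. Over all tested genes, 5319 were higher and 2640 lower as deposited, 3915 and 4010 after median-ratio rescaling, and 3560 and 4325 after quantile normalization. Of the pathway genes, 15 were lower as deposited and 23 after quantile normalization, where STAM2, not called as deposited, also changed sign (-0.17). The labels do not say whether the replicate numbers pair the libraries. Deviations of same-numbered libraries correlated at -0.01, 0.06 and 0.00, and not every library correlated best with its own number. With 3 libraries per group such values cannot settle whether the libraries were paired. With the replicate block 5223 genes were higher and 2618 lower, and the log2 fold change of RNF41 was 1.73 as before (limma adjusted p = 5.0e-06). Depth limits ERBB4 (23 reads in all) and AREG (3), which could not be compared.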

Other observations

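The nearest protein-coding neighbours of the members in RefSeq order, 3 on each side, were read from the same fit. Of the neighbours of all tested members, 25 were tested, 10 of them higher and 7 lower. Among all tested genes 35.9% were higher and 17.8% lower, so the share that rose is near the background. ANKHD1 and ANKHD1-EIF4EBP3 near HBEGF, both among the 7, had nearly the same levels (log2 fold change -0.18 each). They may rest on the same reads but are counted separately. With 25 genes the count that fell is not read as a trait of the neighbours. Around RNF41 all 5 tested neighbours rose, each by less than RNF41. ANKRD52 had a log2 fold change of 0.74 ± 0.07, SMARCC2, a subunit of SWI/SNF chromatin remodelling complexes, 0.65 ± 0.04, and the myosin light chain genes MYL6 and MYL6B 0.29 ± 0.03 and 0.23 ± 0.04. NABP2, a single-stranded DNA-binding protein gene on the other side of the RNF41 start, went from 128 ± 2.29 to 153 ± 2.84 TPM (0.25 ± 0.03, limma adjusted p = 0.00035). Around ERBB2 the neighbours moved apart. PGAP3, whose first exon overlaps the start of ERBB2 on the opposite strand, rose from 10.9 ± 0.386 to 15.0 ± 0.996 TPM. MIEN1, which overlaps the end of ERBB2, fell by 0.24 on the log2 scale, and GRB7, an adaptor that binds ERBB2 and is often amplified with it, was at 11.6 ± 0.763 and 11.6 ± 1.26 TPM (adjusted p = 0.95).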
